A study of Mus musculus with 81 samples.

Results

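BXD mouse strains were split into 15 strains with low liver Hc and 24 strains with high liver Hc, out of 42 strains in the series. Hc encodes complement component C5. The strain value was the mean of its Hc score under chow feeding and its Hc score under high-fat feeding. Strains below 13.28 were called low and strains above 13.28 were called high. Only the 39 strains with an array on each diet could be placed, which uses 78 of the 81 arrays. The Hc scores that chose the groups are given as a description and were not tested.

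The low-Hc strains were BXD44, BXD61, BXD64, BXD65, BXD66, BXD70, BXD75, BXD79, BXD81, BXD83, BXD90, BXD97, BXD100, BXD101 and the parent DBA/2J. The high-Hc strains were 23 other BXD strains and the parent C57BL/6J. BXD strains are inbred lines from crosses of these 2 parents, so each line carries a fixed mosaic of parental chromosome segments and neighbouring genes often come from the same parent. All mice were males killed at 29 weeks after an overnight fast, fed a Harlan chow or a Harlan high-fat diet that began at 8 weeks. Each array held liver RNA pooled from about 5 animals of 1 strain and diet. Values are scores, standardised on each array to mean 8 and SD 2 over its probe sets. The log base of the scores is not stated, so differences are given in score units, always as low Hc minus high Hc, and no folds are given. In such bulk samples, fewer cells of a type and less RNA per cell cannot be told apart.

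C5 is made mainly by hepatocytes and circulates in plasma. When complement is activated by the classical, lectin or alternative pathway, the C5 convertase cuts it into C5a and C5b. C5a is an inflammatory peptide that acts through the receptors C5ar1 and C5ar2 on myeloid cells. C5b gathers C6, C7, C8 and C9 into the membrane attack complex. DBA/2J mice are known for an inherited frameshift in Hc that leaves their plasma without C5, while C57BL/6J mice make it, which is why Hc RNA serves here as a proxy of the allele. The genotype itself was not analysed here.

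Hc had 1 probe set, and the groups were separated by a gap on both diets. Its strain means in the low-Hc group had a lowest value of 12.13, a median of 12.56 and a highest value of 13.04 (mean 12.59 ± 0.24, SD, n = 15). In the high-Hc group the lowest strain was at 13.53, the median at 13.73 and the highest at 13.97 (mean 13.75 ± 0.12, SD, n = 24). The transcript was therefore still clearly scored in the low-Hc livers, well above the median of 6.69 of the negative-control probe sets. The nearest strains to the limit were DBA/2J at 13.04 and BXD64 at 12.89 below it, and BXD69 at 13.53 and BXD48 at 13.54 above it.

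Both parents fell on the side that their known alleles give, but DBA/2J was the highest of the low-Hc strains. Its chow array had 12.84 and its high-fat array 13.23. In chow livers the scores spanned 11.96 to 12.86 in low-Hc strains and 13.43 to 14.05 in high-Hc strains. In high-fat livers they spanned 12.29 to 13.23 in low-Hc strains and 13.57 to 13.998 in high-Hc strains. Hc was higher on high fat in 14 of 15 low-Hc strains, by 0.19 ± 0.16 on average (SD), and in 13 of 24 high-Hc strains, by 0.03 ± 0.16. Since these scores chose the groups, the 2 diet differences are a description without a test.

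**Figure D1:**
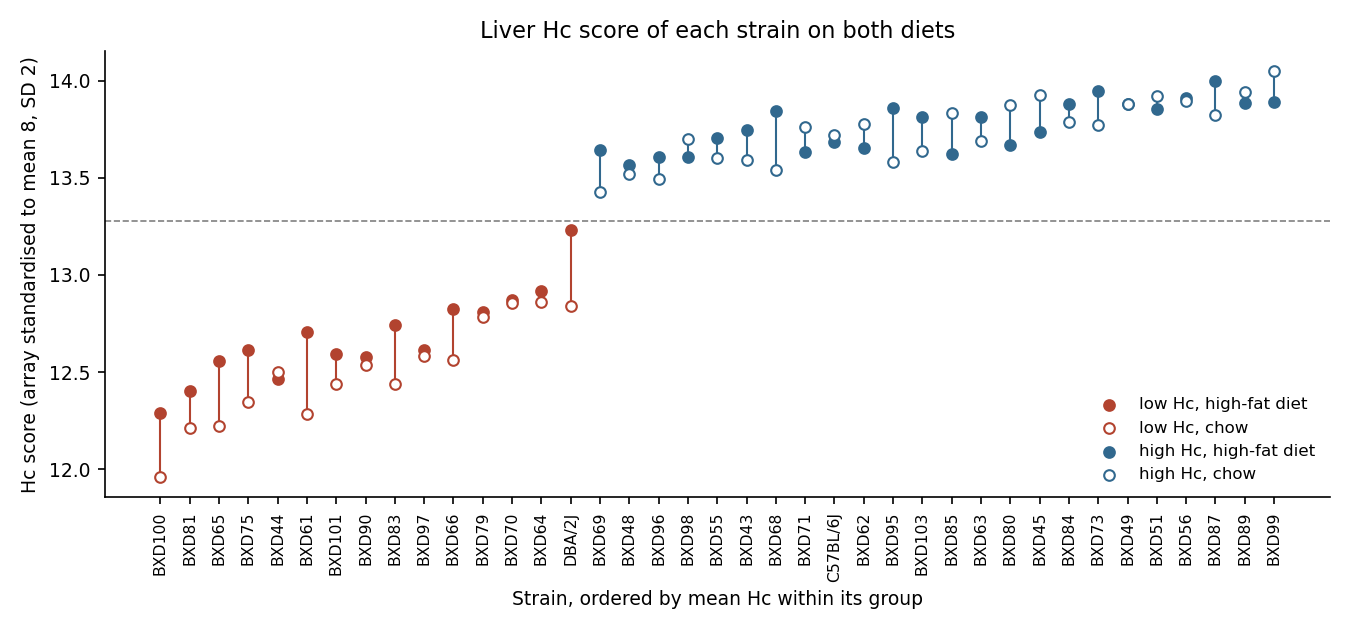
Hc score (vertical axis, array standardised to mean 8 and SD 2) of each strain with both diets, with low-Hc strains in red on the left and high-Hc strains in blue on the right, ordered by strain mean. Filled points are high-fat arrays, open points chow arrays, and the dashed line is the limit of 13.28; the widest gap between neighbouring strain means, 0.499, lies between DBA/2J and BXD69.

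Beyond Hc itself, few liver transcripts differed between the groups. Of 21764 genes, 10 passed the test, which is 0.0459% (limma on strain means, adjusted p below 0.05). In low-Hc livers 6 genes rose (0.0276% of those tested), namely Otud1, Dpp7, Gm13375, C730025P13Rik, St6galnac4 and Gpr107. Another 4 fell (0.0184%), namely Fcna, Sardh, Zmynd19 and Ehmt1. Rose and fell refer to array scores: whether probes of Hc or of these genes overlap sequence variants between the parents, which could shift a score at the same RNA level, was not tested. All 10 lie on chromosome 2, as Hc does, although that chromosome holds 8.47% of the genes with a known chromosome (1755 of 20718). The smallest adjusted p of a gene on another chromosome was 0.179, for the organic cation transporter Slc22a3. Slc22a3 was called, with an adjusted p of 0.0114, when the 78 arrays were fitted in limma with the strain as a random block. The block used 1 correlation of a strain's arrays, 0.203, for all genes. Its p-values can therefore be too small for genes that differ between strains. In the fit on strain means, 961 genes (4.42%) had an unadjusted p below 0.05. The replicate is the strain, so each p rests on the spread between pools of different strains and not on that between animals. Some strains were alike but counted as separate replicates, such as BXD80 and BXD103 (r = 0.73, both high-Hc) and BXD65 and BXD97 (r = 0.61, both low-Hc). With BXD80, BXD103 and BXD97 left out, limma called 7 genes. Other alike pairs, such as BXD48 and BXD96 (r = 0.58, both high-Hc), stayed in that fit.

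The genes that rose in low-Hc livers include enzymes and membrane proteins with no listed role in complement. Dpp7, a dipeptidyl peptidase of lysosomes and vesicles, had a lowest strain mean of 9.63, a median of 10.36 and a highest of 10.66 in low-Hc strains, against 9.27, 9.78 and 10.21 in high-Hc strains. The difference was 0.51 ± 0.076 (SE), with a limma adjusted p of 0.000316. BXD64 and BXD79 were the only 2 low-Hc strains on the high-Hc side of the midpoint for Dpp7, so the groups overlapped. Otud1, a deubiquitinase, ran from 8.50 through a median of 8.81 to 9.08 in low-Hc strains, against 8.21, 8.46 and 8.72 in high-Hc strains. It differed by 0.34 ± 0.050 (limma adjusted p = 0.000316). Its low-Hc strains lay above the midpoint of the group means in 12 of 15 cases and its high-Hc strains below it in 21 of 24.

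Gm13375, annotated in the deposited table as an uncharacterised putative protein, averaged 8.96 ± 0.27 in low-Hc strains and 8.49 ± 0.19 in high-Hc strains (SD), a difference of 0.47. C730025P13Rik, now named Tmem203, a small transmembrane protein, averaged 10.18 ± 0.12 in low-Hc strains and 9.96 ± 0.089 in high-Hc strains, a difference of 0.23. Both had the same limma adjusted p of 0.000316 as Otud1 and Dpp7. St6galnac4, a sialyltransferase that adds sialic acid to glycans, averaged 7.72 ± 0.17 in low-Hc strains and 7.41 ± 0.16 in high-Hc strains (difference 0.30, limma adjusted p = 0.00312). Gpr107, a membrane protein of the Golgi and endosomes, averaged 9.35 ± 0.094 in low-Hc strains and 9.17 ± 0.11 in high-Hc strains (difference 0.18, limma adjusted p = 0.0273). In each of these genes the ranges of the groups overlapped.

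Among the genes that fell in low-Hc livers, Fcna belongs to the complement system. It encodes ficolin A, a circulating lectin that binds sugars on microbes and starts the lectin pathway through MASP proteases. In low-Hc strains Fcna had a lowest strain mean of 8.63, a median of 9.18 and a highest of 9.85. In high-Hc strains it had 9.03, 9.66 and 10.02. The difference was -0.48 ± 0.086 (SE; limma adjusted p = 0.00414), of similar size on chow (-0.51) and on high fat (-0.46). The highest low-Hc strains were BXD64 at 9.85 and BXD79 at 9.67, and the lowest high-Hc strain was BXD55 at 9.03.

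The other genes that fell have roles outside immunity. Sardh, the mitochondrial dehydrogenase that turns sarcosine into glycine, averaged 12.98 ± 0.19 in low-Hc strains and 13.26 ± 0.13 in high-Hc strains (difference -0.28 ± 0.051, SE; limma adjusted p = 0.00414). Zmynd19, a MYND-type zinc finger protein, averaged 8.59 ± 0.16 in low-Hc strains and 8.81 ± 0.11 in high-Hc strains (limma adjusted p = 0.0306). Ehmt1, a histone H3 lysine methyltransferase, averaged 8.92 ± 0.15 in low-Hc strains and 9.11 ± 0.092 in high-Hc strains (limma adjusted p = 0.0441). The call of Ehmt1 was lost on leaving out any 1 of 28 strains, that of Zmynd19 any 1 of 10 and that of Gpr107 any 1 of 5 (BXD61, BXD64, BXD65, BXD79 or BXD97). The other 7 genes kept their calls on leaving out each strain in turn.

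**Figure D2:**
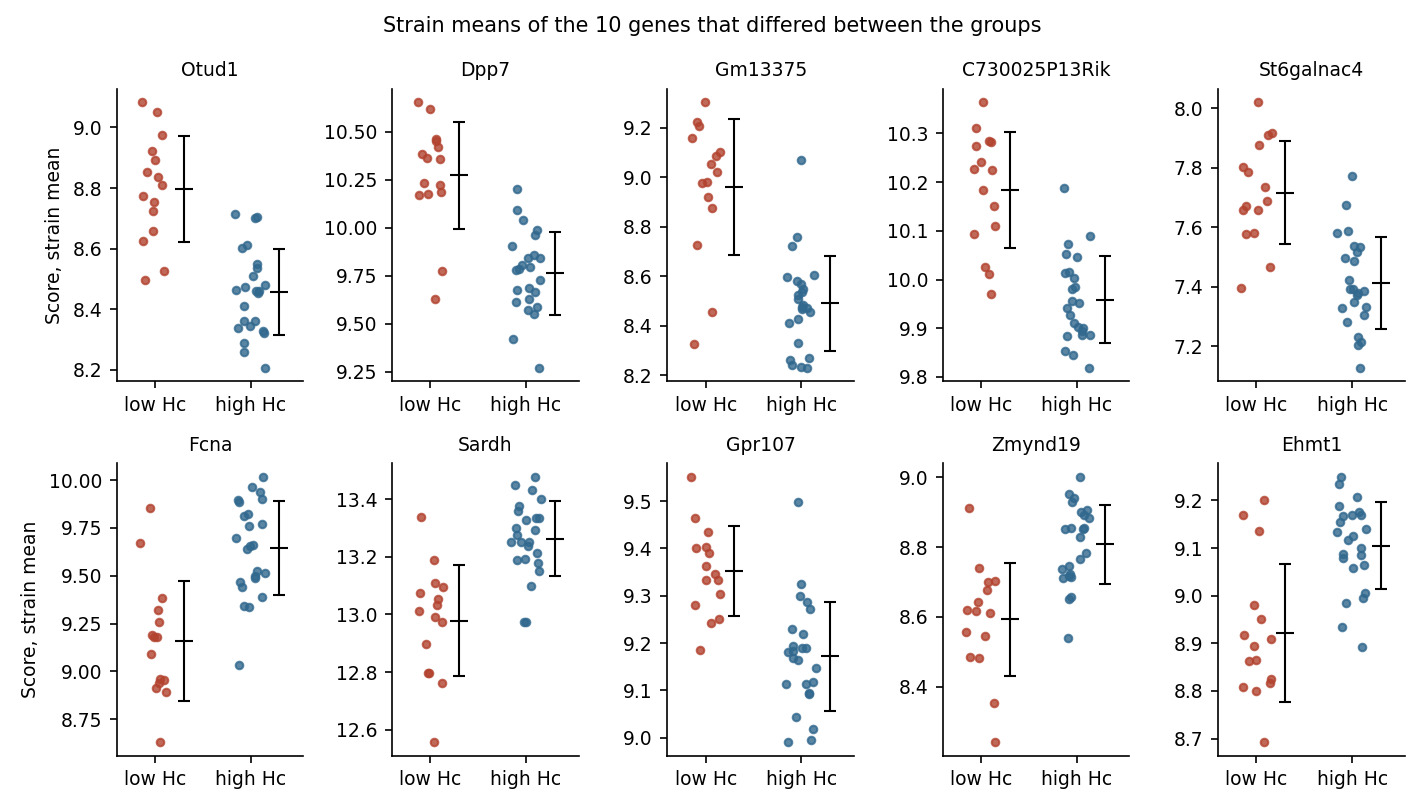
Strain means (vertical axis, score) of the 10 genes with an adjusted p below 0.05, with low-Hc strains in red on the left and high-Hc strains in blue on the right of each panel. Each point is 1 strain, averaged over its 2 diets, black bars are the group mean ± SD (n = 15 and 24), and the ranges of the groups overlap in every panel.

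On chromosome 2 the called genes were not those closest to Hc. All 10 lie before Hc in gene order, at a distance of 35 (St6galnac4), 65 (Gpr107), 134 (Sardh), 184 (Fcna), 204 (Dpp7), 212 (C730025P13Rik), 230 (Zmynd19), 232 (Ehmt1), 258 (Gm13375) and 262 (Otud1) measured genes. The chromosome has 346 measured genes before Hc and 1408 after it. In the stretch from 300 to 201 genes before Hc, 19 of 100 genes had an unadjusted p below 0.05 and 6 were called. From 200 to 101 genes before Hc 11 of 100 did, with 2 called, and among the last 100 genes before Hc 6 did, with 2 called. Among the first 100 genes after Hc, 5 had such a p and 0 were called.

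The immediate neighbours of Hc differed little between the groups. Of the 10 measured genes on each side, among them Traf1, a signalling adaptor of tumour necrosis factor receptors, Phf19, Psmd5, Rab14 and the actin-severing protein Gsn, 0 were called and 0 had an unadjusted p below 0.05 in limma. Their differences ran from -0.053 to 0.072 score units, and the smallest unadjusted p was 0.082. Traf1 averaged 5.85 ± 0.078 in low-Hc strains and 5.86 ± 0.091 in high-Hc strains (SD), both below the negative-control median of 6.69. Hspa5, the chaperone BiP of the endoplasmic reticulum, which lies 7 genes before Hc, averaged 13.43 ± 0.24 in low-Hc strains and 13.40 ± 0.22 in high-Hc strains. The grey point that stands highest in the chromosome plot is Lcn2, an acute-phase lipocalin before Hc, which was picked after its value was seen. Lcn2 averaged 11.25 ± 1.22 in low-Hc strains and 10.68 ± 0.97 in high-Hc strains, with an unadjusted limma p of 0.0949.

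A second stretch lay farther along the chromosome. From 701 to 800 genes after Hc, 20 of 100 had an unadjusted p below 0.05, and from 801 to 900 genes after Hc again 20 of 100. From 901 to 1000 genes after Hc 14 of 100 did. In the main test 0 genes of this second stretch were called. Its smallest adjusted p was 0.0611 in limma, for 1500003O03Rik, now named Chp1, a calcium-binding partner of calcineurin and of sodium-proton exchangers. Chp1 averaged 12.40 ± 0.35 in low-Hc strains and 12.81 ± 0.23 in high-Hc strains. Usp50 (6.92 ± 0.34 in low-Hc and 6.51 ± 0.24 in high-Hc strains) and the histamine-forming enzyme Hdc (7.70 ± 0.20 in low-Hc and 7.99 ± 0.21 in high-Hc strains) each had an adjusted p of 0.0621. The high-Hc mean of Usp50 lay below the negative-control median of 6.69. When the 78 arrays were fitted with diet as a covariate and the strain as a random block, 27 genes were called. Of these, 23 lay on chromosome 2, 12 before Hc and 11 from 701 to 825 genes after it. The other 4 were Pvt1 and Rabl2a on chromosome 15, Slc22a3 on chromosome 17 and Themis on chromosome 10.

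**Figure D3:**
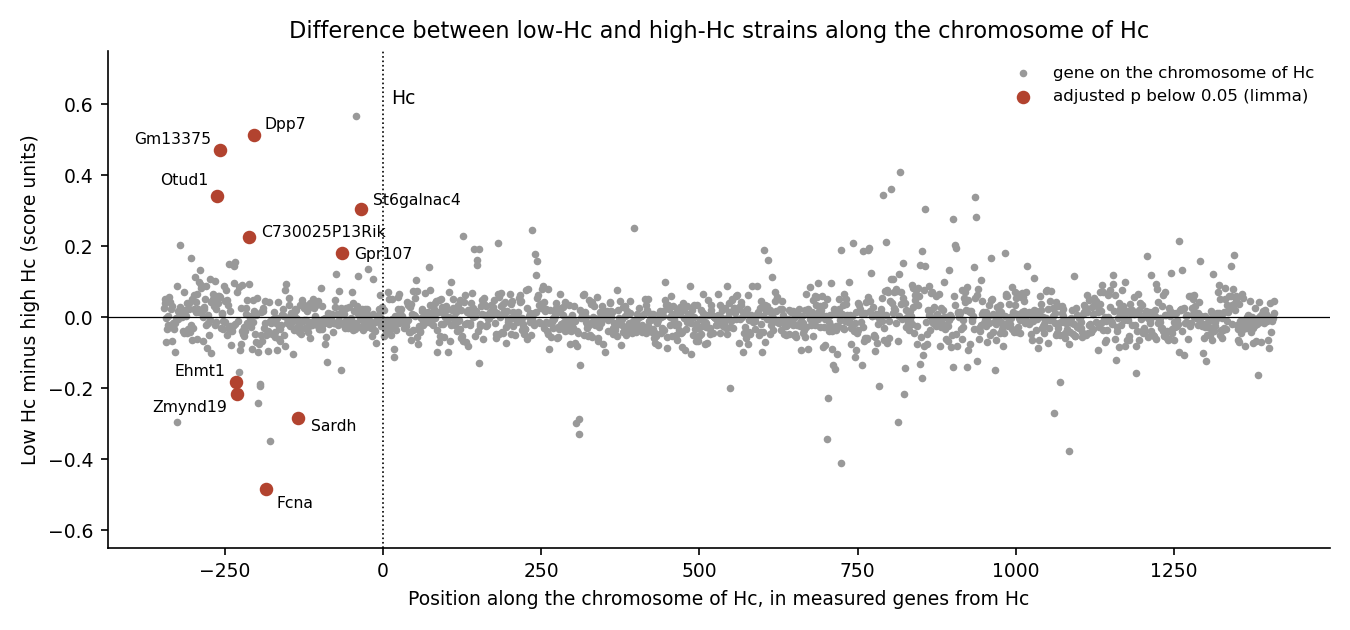
Difference between low-Hc and high-Hc strains (vertical axis, score units, low minus high) for every measured gene on the chromosome of Hc, against its position in measured genes before (negative) or after (positive) Hc. Red points are the 10 called genes, which all lie between 262 and 35 genes before Hc, and the dotted line marks Hc, whose own value is not drawn.

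Within most strains the 10 called genes lay together on the side of their group. Each strain mean was placed on the low-Hc or the high-Hc side of the midpoint between the group means. Of the 15 low-Hc strains, 6 had all 10 genes on their own side and 13 had at most 2 on the other. Of the 24 high-Hc strains, 7 had all 10 on their own side and 20 had at most 2 on the other. These midpoints come from the same groups, so the counts describe the strains and test nothing.

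A pair of low-Hc strains and a single high-Hc strain went against their group. BXD64 had the high-Hc side for Otud1, Gm13375, Ehmt1, Zmynd19, C730025P13Rik, Dpp7 and Fcna and the low-Hc side for Sardh, Gpr107 and St6galnac4, the 3 called genes nearest to Hc. BXD79 had the high-Hc side for 7 genes, with Gpr107, St6galnac4 and Zmynd19 on the low-Hc side. BXD55, with a high-Hc score of 13.66, had the low-Hc side for 9 of 10 genes, all but Gpr107. Its Fcna was 9.03, its Dpp7 10.21 and its Gm13375 9.07.

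**Figure D4:**
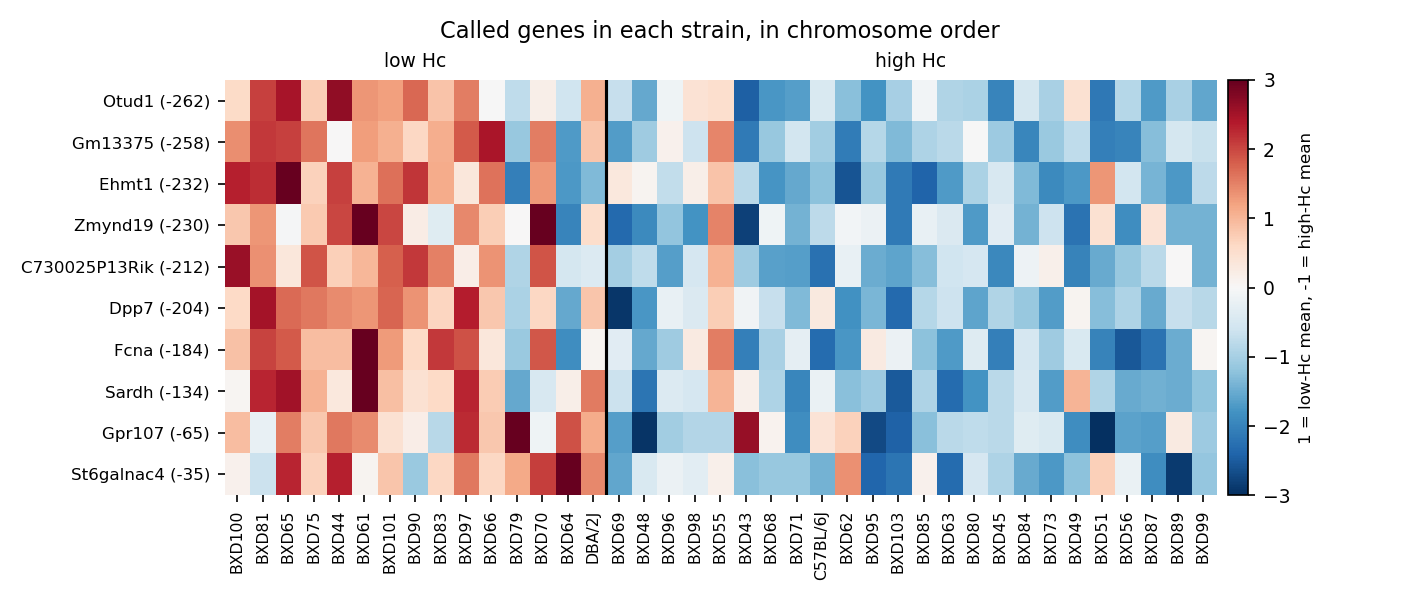
The 10 called genes (rows, in chromosome order, with the number of measured genes from Hc in brackets) in each strain (columns, low-Hc strains left and high-Hc strains right of the line, ordered by Hc). Colour gives the strain mean on a scale where 1 is the low-Hc mean and -1 the high-Hc mean of that gene, limited to 3; BXD64 and BXD79 are blue at most rows, and BXD55 is red at 9 of 10.

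The 3 strains with only 1 array took no part in the choice of groups or in the test. BXD92a, on chow, had an Hc score of 12.14 and was nearer to the low-Hc than to the high-Hc chow mean for all 10 called genes. BXD60, on chow, had an Hc score of 12.57 and was nearer to the low-Hc mean for 9 of 10 genes, with Otud1 at 8.50 nearer to the high-Hc mean. BXD50, on high fat, had an Hc score of 13.74, at the level of high-Hc strains. Yet 7 of its called genes, from Otud1 to Fcna, were nearer to the low-Hc mean, and Sardh, Gpr107 and St6galnac4 were nearer to the high-Hc mean. Over all genes the chow array of BXD92a was most like that of BXD65 (r = 0.47 across 21765 genes, as deviations from the chow mean), a strain that is itself in the low-Hc group. The chow array of BXD60 was most like that of BXD97 (r = 0.33), also a low-Hc strain. The high-fat array of BXD50 was most like that of the low-Hc strain BXD79 (r = 0.18).

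The parents, which differ at all segments at once, gave the same direction for most called genes. In a test of the 37 BXD strains alone, 12 genes (0.0551%) passed limma's adjusted threshold. They included the 10 named above, C8g and Themis, a regulator of T-cell receptor signalling on chromosome 10. For 10 of these 12, the difference DBA/2J minus C57BL/6J had the sign of low minus high Hc among the BXD strains. That count includes small parental differences, -0.025 for C8g and 0.063 for Gpr107, and each parent is 1 strain. For Dpp7 the parental difference was 0.14, against 0.53 among the BXD strains. C57BL/6J lay on the low-Hc side of the midpoint for Dpp7 and Gpr107. DBA/2J lay on the high-Hc side for Ehmt1 and C730025P13Rik. Of the 12 genes, 11 lie on chromosome 2, and the share of such signs over all genes was not counted. For Fcna the parents had 9.38 (DBA/2J) and 9.96 (C57BL/6J), and for Gm13375 8.92 (DBA/2J) and 8.48 (C57BL/6J). The exceptions were Ehmt1, at 9.14 in DBA/2J and 9.13 in C57BL/6J, and Themis, which was 0.60 higher in low-Hc BXD strains (adjusted p = 0.0297) but 7.08 in DBA/2J and 7.85 in C57BL/6J. With the parents included, the limma adjusted p of Themis was 0.304 on strain means and 0.0403 with the strain as a random block. The latter has the limit, given above, of 1 correlation for all genes.

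The 10 genes whose strain means were most like Hc over the 39 strains were 9 of the called genes, all but Gpr107, and C8g. The highest absolute Pearson correlations were those of Otud1 (r = -0.78), C730025P13Rik (r = -0.78), Gm13375 (r = -0.76), Dpp7 (r = -0.75), Ehmt1 (r = 0.72), Fcna (r = 0.72), Sardh (r = 0.69), C8g (r = 0.67), St6galnac4 (r = -0.62) and Zmynd19 (r = 0.62). All share the same arrays and the same step between groups, so these values describe likeness and carry no test. Within the 15 low-Hc strains the correlation was 0.75 for Ehmt1 and -0.59 for C730025P13Rik, and within the 24 high-Hc strains it was 0.20 for Ehmt1 and -0.003 for C730025P13Rik. St6galnac4 had opposite signs, 0.46 within low-Hc strains against -0.62 over all 39.

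Among the complement genes other than Hc, Fcna alone passed the test. Of 55 listed genes other than Hc, 54 were measured, 0 were higher and 1 (Fcna) was lower in low-Hc livers, that is 1 of 54 against 0.0459% of all genes. In 4 of 54 (7.41%) the unadjusted p was below 0.05, against 4.42% of all genes. The median difference was 0.011 score units over the list and -0.002 over all genes. For 39 of the 54 the whole 95% interval lay within 0.25 score units of 0, and for 52 within 0.5. Among all 21764 genes these numbers were 20588 and 21565, a larger share in both cases. On chromosome 2 lie 7 of them (Fcna, Fcnb, C8g, Cd59a, Cd59b, Cd93 and Serping1), and among the 47 complement genes on other chromosomes 0 were called. Of all 18963 genes on other chromosomes 0 were called too, so that count does not set complement genes apart.

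No component of the membrane attack complex passed the test, and C8g came nearest to a call. C8g encodes the gamma chain of C8, a lipocalin bound to the C8 alpha chain, and lies 194 genes before Hc, in the stretch of the called genes. It had a lowest strain mean of 13.15, a median of 13.42 and a highest of 13.58 in low-Hc strains, against 13.30, 13.64 and 13.77 in high-Hc strains. The difference was -0.19 ± 0.040 (SE) with a limma adjusted p of 0.0531, and 0.0377 among the BXD strains alone. The other chains of C8 averaged 12.80 ± 0.25 in low-Hc and 12.88 ± 0.20 in high-Hc strains (C8a) and 12.998 ± 0.42 in low-Hc and 13.07 ± 0.28 in high-Hc strains (C8b). C6 differed by 0.01, C7 by 0.05 and C9, the pore-forming subunit, by -0.003 score units.

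The receptors of C5a did not differ detectably. C5ar1 averaged 7.39 ± 0.13 in low-Hc strains and 7.37 ± 0.20 in high-Hc strains (difference 0.02, 95% interval from -0.10 to 0.13). C5ar2, under its older symbol Gpr77 in the deposited table, averaged 8.38 ± 0.24 in low-Hc strains and 8.47 ± 0.22 in high-Hc strains (difference -0.09, 95% interval from -0.24 to 0.06). C3ar1, the receptor of C3a, averaged 8.71 ± 0.70 in low-Hc strains and 8.62 ± 0.31 in high-Hc strains. That wide spread came from BXD61, a low-Hc strain at 11.13, while the other 14 low-Hc strains lay between 8.18 and 8.88. Without BXD61 the difference of C3ar1 was -0.08 in place of 0.09. Cd93, a C1q-associated receptor of myeloid and endothelial cells on chromosome 2, averaged 8.82 ± 0.29 in low-Hc and 8.63 ± 0.19 in high-Hc strains (unadjusted p = 0.0171, limma adjusted p = 1).

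Upstream of C5, C3, the most abundant complement protein in plasma, averaged 15.03 ± 0.071 in low-Hc strains and 15.03 ± 0.071 in high-Hc strains, a difference of -0.007 with a 95% interval within 0.25. C4b averaged 13.41 ± 0.15 in low-Hc and 13.38 ± 0.13 in high-Hc strains, and factor B (Cfb) 13.04 ± 0.16 in low-Hc and 13.03 ± 0.12 in high-Hc strains. C4a had the widest spread, 10.66 ± 0.72 in low-Hc and 10.89 ± 0.73 in high-Hc strains. C4a and C4b are near-identical copies whose probes can share signal, so their separate values are uncertain. The initiators of the classical pathway (7 genes) had 0 called and differences from -0.12 (C1qc) to 0.06 (C1s).

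In the lectin pathway, 7 of the 8 genes were not called. Fcnb, the second mouse ficolin also on chromosome 2, 128 genes before Hc, averaged 7.62 ± 0.12 in low-Hc strains and 7.57 ± 0.14 in high-Hc strains, a difference of 0.05. The mannose-binding lectins Mbl1 (difference 0.03) and Mbl2 (-0.03), the collectins Colec10 (0.11) and Colec11 (0.04) and the proteases Masp1 (0.02) and Masp2 (0.04) were all within 0.11 score units. Among 17 measured regulators, which hold complement in check, 0 were called. Cd46, a cofactor for cleavage of C3b and C4b, had the smallest p of them, at 6.62 ± 0.13 in low-Hc and 6.51 ± 0.18 in high-Hc strains (unadjusted p = 0.033, limma adjusted p = 1). Both means of Cd46 lay below the negative-control median of 6.69, so its score may not reflect expression. The regulators Cfi, C4bp, Serping1, Vtn and Clu differed by less than 0.05 score units.

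**Figure D5:**
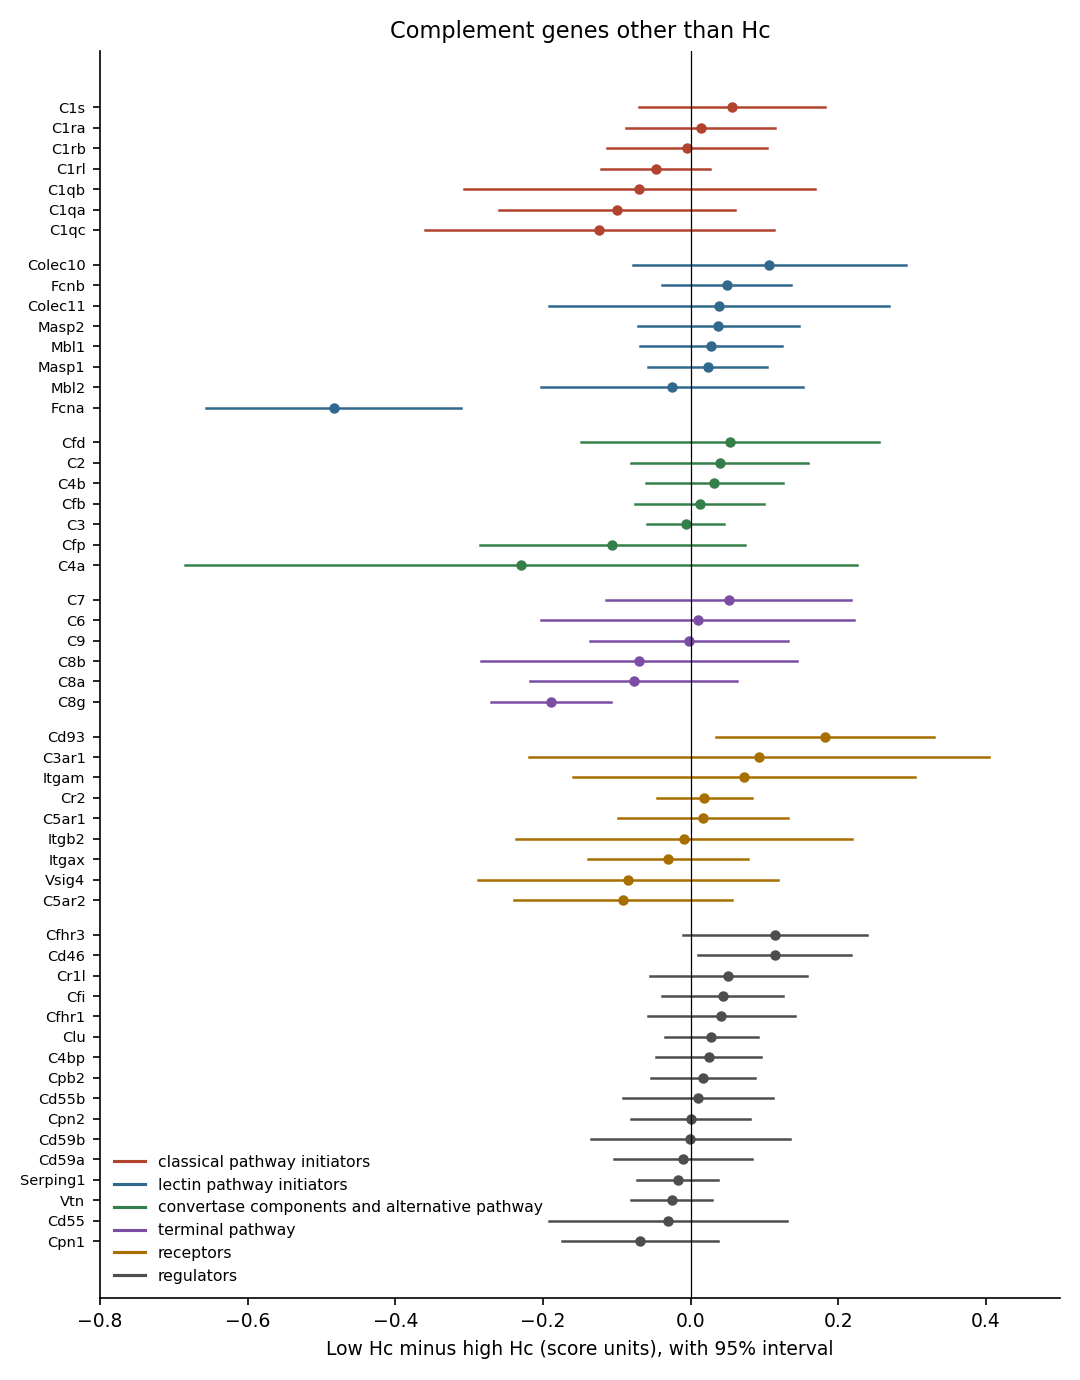
Difference between low-Hc and high-Hc strains (horizontal axis, score units, low minus high) of measured complement genes other than Hc, grouped and coloured by role, with 95% intervals from limma. Fcna stands at -0.48, C8g at -0.19, and of these only Fcna passed the adjusted threshold.

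Markers of macrophages and Kupffer cells, the resident macrophages of the liver, had 0 of 25 called in either direction. The median difference was -0.051 over this list and -0.002 over all genes. Of the 25, 17 had a lower value and 8 a higher one in low-Hc strains, and 3 of 25 had an unadjusted p below 0.05, against 4.42% of all genes. Without BXD61 the median difference was -0.111, with 21 values lower and 4 such p. This low-Hc strain was left out because it was the highest over this list (9.97). The next highest, the high-Hc strain BXD49 (9.73), was kept. The share of such p over all genes without BXD61 is not given here. Mertk, which takes up dying cells and lies on chromosome 2, 848 genes after Hc, averaged 9.89 ± 0.11 in low-Hc and 10.02 ± 0.15 in high-Hc strains (limma adjusted p = 0.811). Timd4, a Kupffer cell receptor for phosphatidylserine, averaged 8.38 ± 0.17 in low-Hc and 8.58 ± 0.28 in high-Hc strains. Clec4f, a Kupffer cell lectin, averaged 10.53 ± 0.30 in low-Hc and 10.74 ± 0.27 in high-Hc strains (both with a limma adjusted p of 1). Adgre1, a surface marker of mouse macrophages, averaged 9.38 ± 0.62 in low-Hc and 9.43 ± 0.42 in high-Hc strains.

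A single low-Hc strain, BXD61, stood apart in several immune and matrix lists. Its mean score over the macrophage list was 9.97, while the median of all low-Hc strains was 9.19 and that of high-Hc strains 9.30. Over the stellate cell and matrix list it reached 9.98, against medians of 9.39 in low-Hc and 9.36 in high-Hc strains. Over the cytokine and chemokine list it reached 9.12, against medians of 8.17 in low-Hc and 8.22 in high-Hc strains. BXD49, a high-Hc strain, was the next highest for macrophage and cytokine genes. Leaving out BXD61, or any other single strain, gave 0 called macrophage genes.

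Other immune and tissue lists had 0 of 237 measured members called, and 16 (6.75%) had an unadjusted p below 0.05, 11 of them higher in value in low-Hc strains. Of 20 stellate cell and matrix genes, 18 had a higher value in low-Hc strains and 4 an unadjusted p below 0.05, with a median difference of 0.079. Over all genes 47.5% had a higher value in low-Hc strains and 4.42% such a p. Without BXD61 the median difference of this list was 0.028, with 15 genes higher and 2 with such a p. Among them Pdgfrb, the receptor of platelet-derived growth factor, averaged 9.06 ± 0.27 in low-Hc and 8.90 ± 0.11 in high-Hc strains (limma adjusted p = 0.957), and Col4a1 averaged 8.79 ± 0.17 in low-Hc and 8.69 ± 0.071 in high-Hc strains. The median difference of the 11 hepatocyte markers was -0.004. Hnf4a, a hepatocyte master regulator, averaged 12.96 ± 0.094 in low-Hc and 12.999 ± 0.087 in high-Hc strains.

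All 10 measured class II antigen presentation genes had a lower value in low-Hc strains, with a median of -0.17 (-0.237 without BXD61), but 0 were called. An unadjusted p below 0.05 was found for 1 of the 10 with all strains and for 5 without BXD61. BXD61 was left out after its values were seen. The high-Hc strain BXD80, with the highest mean score over this list (9.42), was kept. The share of such p over all genes without BXD61 is not given here. Over all 21764 genes, 11405 had a lower value and 4.42% such a p with all strains. With all strains H2-DMb2 had the smallest unadjusted limma p, 0.0181. Cd74, the invariant chain, averaged 10.42 ± 0.59 in low-Hc and 10.69 ± 0.45 in high-Hc strains. In the acute-phase list, Hamp, the iron hormone hepcidin, whose near copy Hamp2 can share signal, averaged 13.06 ± 1.83 in low-Hc and 13.98 ± 0.47 in high-Hc strains (limma adjusted p = 1). BXD81 alone was at 7.01, and the other 14 low-Hc strains lay between 11.42 and 14.30. Without BXD81 the Hamp difference was -0.50 in place of -0.93. Orm2, an acute-phase glycoprotein with near-identical family members, averaged 11.31 ± 0.91 in low-Hc and 10.77 ± 0.75 in high-Hc strains (limma adjusted p = 1).

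Remaining lists are given by the member with the smallest unadjusted p and its difference in brackets, each with a limma adjusted p of 0.811 or more. These were Bmp2, an iron-regulating ligand of sinusoidal endothelium that also lies on chromosome 2 (-0.14), the monocyte receptor Ccr2 (0.17), the bile duct factor Sox9 (0.12), the natural killer receptor Klrb1c (0.08) and the B-cell receptor component Cd79a (-0.12). Both group means of Ccr2, Klrb1c and Cd79a lay below the negative-control median of 6.69, so their scores may not reflect expression. The interferon-induced Oasl1 differed by 0.22, the prostaglandin synthase Ptgs2 by -0.08 and cyclin B1 (Ccnb1) by 0.14. Acinar transcripts, which are foreign to liver, were high on 1 array of DBA/2J (Cpa1 at 10.36 on chow) and 1 of BXD63 (11.09 on high fat), against a median of 7.47 over all arrays. Without these strains 13 genes were called.

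Genes whose strain means fall into separate levels were not called between the Hc groups. Dhtkd1, a 2-oxoadipate dehydrogenase on chromosome 2, averaged 11.59 ± 0.43 in low-Hc and 11.38 ± 0.45 in high-Hc strains (limma adjusted p = 1). The protease Ctse averaged 10.10 ± 2.53 in low-Hc and 9.03 ± 2.09 in high-Hc strains, and the class II chain H2-Ea 7.55 ± 1.58 in low-Hc and 8.21 ± 1.99 in high-Hc strains. Bckdhb, a subunit of the branched-chain keto acid dehydrogenase, averaged 12.67 ± 0.30 in low-Hc and 12.35 ± 0.44 in high-Hc strains (unadjusted p = 0.0123, limma adjusted p = 1). Corin, Stab2, Pttg1, D2hgdh, Cox7a2l and Nnt, chosen in the same way, each had a limma adjusted p of 1. In each of the 4 genes with values the ranges of the groups overlapped over most of their length.

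The response to the high-fat diet did not differ detectably between the groups. On the within-strain differences of high fat minus chow, limma called 0 of 21764 genes (0.0%), while 1221 (5.61%) had an unadjusted p below 0.05. The 5 genes with the smallest p all had an adjusted p of 0.781. Hsph1, a cytosolic heat shock protein, was higher on high fat by 0.28 ± 0.41 in low-Hc strains, while in high-Hc strains the difference was -0.15 ± 0.30 (SD). Vnn3, a pantetheinase, had -0.06 ± 0.24 in low-Hc and 0.22 ± 0.21 in high-Hc strains. For 2410004P03Rik, Lsamp and Olfr699 the difference of the diet responses was -0.25, -0.31 and -0.28. Of the complement genes 3 of 54 had an unadjusted p below 0.05 for this response, and the median response was 0.043 in low-Hc and 0.053 in high-Hc strains.

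On single diets, 4 genes were called among chow arrays alone (0.0184%), namely Dpp7, Otud1, Gm13375 and Fcna, and 9 among high-fat arrays alone (0.0414%). The same 4 genes were called in each of the 51 alternatives that were run, these single-diet fits included. Array medians averaged 7.74 ± 0.025 in low-Hc and 7.74 ± 0.029 in high-Hc strains.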

How the data were processed

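Liver RNA was hybridised to Affymetrix whole-transcript arrays. The deposited values are scores. Affymetrix Expression Console (no version stated) is credited in the submitters' processing notes. Each deposited column was standardised to mean 8 and SD 2 over 35556 probe sets; how the scores were summarised is not given in the sources used here. Of the probe sets, 25096 carried 1 gene symbol, 2 several and 10458 none. For each gene the probe set with the highest mean was kept, which left 21765 genes, of which 1747 had several probe sets. Gene order came from a RefSeq table (GRCm38.p6), in which 20718 genes had a chromosome; no coordinates were used because the build behind the array annotation is not named. The number of arrays limits the precision.

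For each of the 39 strains the chow and high-fat scores were averaged, and low-Hc minus high-Hc strains was fitted with limma 3.58.1 (R 4.3.3; lmFit, eBayes, two-sided). The diet response was fitted on high fat minus chow within strains, which pairs arrays by strain name. P-values were adjusted by Benjamini-Hochberg over 21764 genes, all but Hc, at a threshold of 0.05. Intervals are 95% intervals. The script was tested on simulated data. The groups and the gene lists (323 entries, 315 measured) were chosen with earlier results of these data known. Genes were named by rule: called genes, all complement genes, the 2 members of each other list with the smallest p, neighbours of Hc, the 10 genes most like Hc and the 5 with the smallest p for the diet response; others were picked after their values were seen. Alternatives were single diets, arrays in place of strain means, BXD strains alone, fewer strains, other probe sets, centring, a filter on dim genes, weights, prior variance and each strain left out. A few genes that these rules would name are not reported here.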

Additional observations from a re-analysis of the deposited data

How the results depend on the processing

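The number of genes differing between the groups was 10. It was 27 with the 78 arrays fitted with diet as a covariate and the strain as a random replicate block, 33 with the same arrays and no block (chosen after seeing the data) and 4 on chow arrays alone. All 10 genes were among the 27. The block used 1 correlation, 0.203, for all genes, so p-values can be too small for genes that differ between strains. In the other alternatives from the plan, the number lay between 7 and 13. Leaving out 1 strain at a time, chosen after seeing the data, gave 7 to 17 genes, with 17 without BXD84 and 17 without BXD100. The number of called complement genes was 1, and 2 with C8g added under the random replicate block, without a block, among BXD strains alone, without DBA/2J and BXD63, with dim genes left out, with array weights and with a trended robust prior. It was 1 to 2 on leaving out single strains, and 2 without BXD49, BXD51, BXD55, BXD64, BXD65, BXD79, BXD98, BXD100 or DBA/2J. Called macrophage genes, called genes of the other lists and genes with a different diet response numbered 0 under all of their alternatives, including the diet response with no replicate block, where 718 genes had an unadjusted p below 0.05. No difference of a called gene changed sign. Over the 51 alternatives Dpp7 ran from 0.47 to 0.56, Fcna from -0.53 to -0.43, and Ehmt1, the least stable call, passed in 19. C730025P13Rik, Sardh and St6galnac4 lost their calls on chow alone. Gpr107 lost its call on chow alone, after median centring, with array weights and without BXD80, BXD103 and BXD97. These strains were left out together to keep only BXD73 and BXD65 of their similar groups, while other alike pairs were kept. Zmynd19 and Ehmt1 lost theirs on either diet alone, after median centring and without those 3 strains. The causes were not tested.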
